A study of Mus musculus with 6 samples.

Results

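The ABC transporters are a family of membrane proteins that use ATP to move lipids, peptides, drugs and metabolites across membranes, and 45 of their genes were described in leukaemic mouse bone marrow. The members were a fixed list of gene names, matched to probe sets that carry exactly 1 gene symbol, and all 45 were measured, each by 1 probe set, among 19938 genes in all. The first group, HoxA9AA/Meis1, was bone marrow of 3 lethally irradiated CD45.1+ mice that had received CD45.2+ LSK cells (haematopoietic stem and progenitor cells) transduced with Meis1 and with HoxA9AA-GFP, a form of HoxA9 that the labels name but do not explain. The second group, HoxA9wt/Meis1, was marrow of 3 such mice whose LSK cells carried Meis1 and HoxA9wt-GFP. Marrow was taken at disease onset, RNA of each mouse was read on 1 array, and no age or strain is given in the sources used here. Both groups share the introduced Meis1, the irradiation and the transplantation, and whole marrow still holds whatever cells of the host remain.

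An ABC transporter is built from nucleotide-binding domains, which bind and split ATP, and membrane-spanning domains, which form the path for the cargo. In blood cells, ABCA and ABCG proteins are known for exporting cholesterol and phospholipids from macrophages. ABCB and ABCC proteins are known for drug efflux from stem and leukaemia cells and for the export of leukotrienes and nucleotides, and the pair TAP1 and TAP2 carries peptides into the endoplasmic reticulum for MHC class I. ABCD proteins bring fatty acids into peroxisomes, and ABCE and ABCF proteins have no membrane domain and act on ribosomes.

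The promoters of 3 neighbouring ABCA genes and that of Tap1 are shown. Abca9 and Tap1 are among the genes with the values described next, and Abca8a and Abca8b lie beside Abca9. Abca6 and Tap2, which had the larger difference of each pair, had no promoter entry and could not be shown. Each window shown is the stretch of 250 bases that ends at the gene's RefSeq start (build GRCm38.p6), written 5′ to 3′ on the strand of the gene. Capitals mark matches, on either strand, to the core of PU.1 sites (GAGGAA, read as TTCCTC on the other strand) and to the GC box (GGGCGG, read as CCGCCC).
Abca9 (chr11:110168154-110168403, minus strand): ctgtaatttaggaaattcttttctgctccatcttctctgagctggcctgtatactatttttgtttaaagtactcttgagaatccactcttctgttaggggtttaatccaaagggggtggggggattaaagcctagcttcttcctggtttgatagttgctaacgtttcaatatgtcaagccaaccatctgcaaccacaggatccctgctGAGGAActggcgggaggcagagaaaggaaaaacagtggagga
Abca8b (chr11:109995846-109996095, minus strand): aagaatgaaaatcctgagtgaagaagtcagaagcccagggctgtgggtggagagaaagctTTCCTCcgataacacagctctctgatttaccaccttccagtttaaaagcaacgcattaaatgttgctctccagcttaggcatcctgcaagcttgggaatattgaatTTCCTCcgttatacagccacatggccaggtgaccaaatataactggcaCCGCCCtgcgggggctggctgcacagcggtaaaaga
Abca8a (chr11:110095938-110096187, minus strand): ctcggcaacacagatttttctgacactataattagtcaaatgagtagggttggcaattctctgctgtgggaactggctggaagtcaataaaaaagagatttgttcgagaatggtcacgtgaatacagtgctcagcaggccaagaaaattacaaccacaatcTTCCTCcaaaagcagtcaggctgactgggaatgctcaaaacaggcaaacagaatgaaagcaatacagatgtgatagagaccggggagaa
Tap1 (chr17:34187306-34187555, plus strand): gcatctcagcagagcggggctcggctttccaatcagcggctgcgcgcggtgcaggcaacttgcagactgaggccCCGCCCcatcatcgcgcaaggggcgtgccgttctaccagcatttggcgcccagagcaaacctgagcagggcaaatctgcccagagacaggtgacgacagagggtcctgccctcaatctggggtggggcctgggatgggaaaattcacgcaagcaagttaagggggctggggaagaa

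The PU.1 core, named for a transcription factor of myeloid and B cells, was found upstream of Abca9, 42 bases before the start, at 190 and 84 bases upstream of Abca8b and at 89 bases upstream of Abca8a. It was present in 23.3% of all 32851 promoter windows of this length and in 13 of the 41 windows of the 34 members that had an entry. The GC box was found 176 bases before the start of Tap1 and 36 bases before that of Abca8b, and it was present in 32.7% of all windows and in 21 of the 41. None of the 4 printed windows held the MEIS core TGACAG or the HOX and PBX pattern TGATNNAT, which were present in 15.9% and 7.68% of all windows and in 2 and 0 of the 41. A match is a run of letters, not a measured binding site, and the motifs do not overlap each other in these windows.

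Expression values are RMA values in log2 units, where 1 unit stands for 2-fold. As a measure of background, the 95th percentile of the mean values of 1027 olfactory receptor genes was 6.57, and a gene was called expressed when its mean over the 6 arrays lay above this limit. Of the 45 members, 33 were expressed, or 73.3%, against 59.5% of all genes. The lowest members above the limit were Abcb9, Abcc9 and Abcb4, at means of 6.67, 6.77 and 6.84, and the highest below it were Abcc10, Abcc8 and Abcg8, at 6.49, 6.43 and 6.05. The 12 members below were Abca4, Abca5, Abca8a, Abca8b, Abca12, Abcb11, Abcc8, Abcc10, Abcc12, Abcg2, Abcg5 and Abcg8, of which 10 stayed under the limit on every array. Probe sets differ in brightness, so that values of different genes were not ranked as amounts of RNA.

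Markers of myeloid cells were judged by their means over the 6 arrays, and some lay under the limit in single mice. Msr1 measured 5.99 and 5.68 in HoxA9AA replicates 1 and 3. Mertk and Mrc1 measured 6.14 and 6.03 in HoxA9AA replicate 1, C1qa 6.53 in replicate 2 and Mmp8 6.07 in replicate 3. In HoxA9wt replicate 3, Ltf measured 5.73, Cxcr2 6.09, Retnlg 6.34 and Mmp9 6.46. All 6 genes of primary granule precursors, all 10 measured genes of late neutrophils and all 17 measured genes of monocytes and macrophages were expressed. Of the markers of other cells, 3 of 9 erythroid, 2 of 7 T and NK cell, 5 of 8 B cell, 5 of 6 megakaryocyte and platelet, and 5 of 9 stroma and endothelium genes were expressed by the same rule. The median over all probe sets was 6.73 to 6.85 on the 6 arrays. Across genes, the correlation between arrays of one group was r = 0.963 to 0.972 in HoxA9AA/Meis1 and 0.987 or higher in HoxA9wt/Meis1. HoxA9AA replicate 2 correlated with the HoxA9wt arrays at 0.989 to 0.991 and replicates 1 and 3 at 0.958 to 0.970. The differences of Abca9, Tap1 and Tap2 are therefore also given without HoxA9AA replicate 2. That array was chosen for its likeness to the other group, so its removal tends to widen differences by design. Larger differences and smaller adjusted p values without it are no support for a group difference. Genes are not independent replicates, and precision is limited by the 3 mice a group.

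The comparison asked which ABC genes differ between diseased marrow with HoxA9AA and with HoxA9wt. The neighbouring ABCA genes Abca6 and Abca9 lay much lower in HoxA9AA/Meis1 marrow, the peptide transporter genes Tap1 and Tap2 and the nucleotide exporter gene Abcc4 lay somewhat higher, and the ribosome recycling gene Abce1 lay somewhat lower. None of these differences passed the test. With limma and Benjamini-Hochberg adjustment over all genes, 0 of the 45 members had an adjusted p under 0.05, where 0.0% of all genes did, and the smallest adjusted p of any member was 0.731. An unadjusted p under 0.05 was found for 8 members, 4 higher (Abca7, Abcc4, Tap1, Tap2) and 4 lower (Abca6, Abca9, Abce1, Abcg2) in HoxA9AA/Meis1, against 6.74% of all genes, 4.15% higher and 2.59% lower. Without HoxA9AA replicate 1, HoxA9wt replicate 2 or HoxA9wt replicate 3 this count was 4, and without HoxA9AA replicate 3 it was 5. The groups did not overlap for 10 members, 6 higher and 4 lower, against 11.4% of all genes, 6.6% higher and 4.8% lower. Among the 33 expressed members these counts were 7 and 8, against 9.88% and 13.9% of all expressed genes. The median difference (HoxA9AA/Meis1 minus HoxA9wt/Meis1) was 0.063 over the 33 expressed members and 0.030 over the 11860 expressed genes. A higher mean was found for 20 of the 33 and for 6687 of the 11860.

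**Figure D1:**
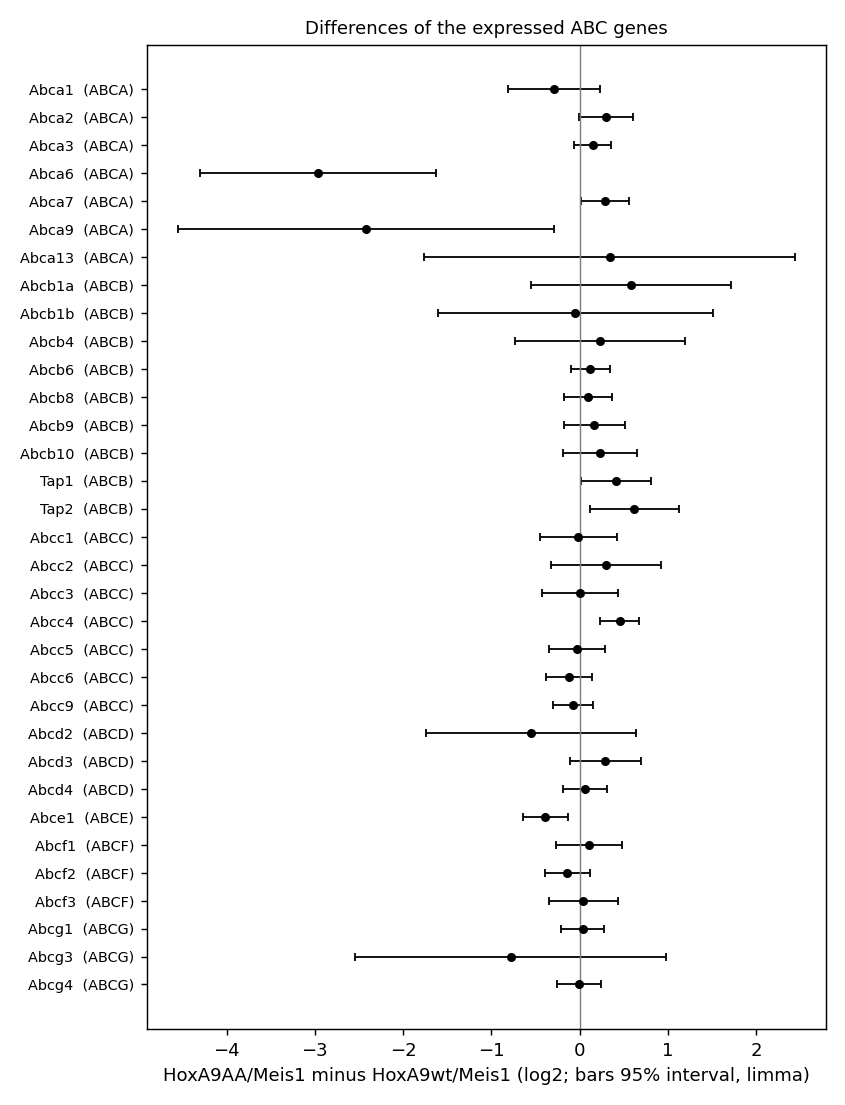
Differences (horizontal axis, log2, HoxA9AA/Meis1 minus HoxA9wt/Meis1) of the 33 expressed ABC genes, grouped by subfamily; points are limma estimates from 3 mice a group and bars their 95% intervals. Abca6 and Abca9 stand apart at -2.97 and -2.42 with wide intervals, and most other genes lie within 0.5 of 0.

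Single mice differed widely in some ABC genes. The range over the 6 arrays was 2 or more for 5 of the 45 members, or 11.1%, against 2.27% of all genes. The 5 were Abca6, Abca9, Abca13, Abcb1b and Abcg3. The SD was larger among the HoxA9AA/Meis1 than among the HoxA9wt/Meis1 mice for 26 of the 33 expressed members (78.8%), as it was for 77.7% of all expressed genes. Relative to the HoxA9wt mean, 5 expressed members were off by 1 or more in HoxA9AA replicate 1, 8 in replicate 3 and 1, Abca6, in replicate 2. These were 15.2%, 24.2% and 3.03% of the expressed members, against 6.70%, 5.07% and 0.438% of all expressed genes in the same 3 arrays.

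**Figure D2:**
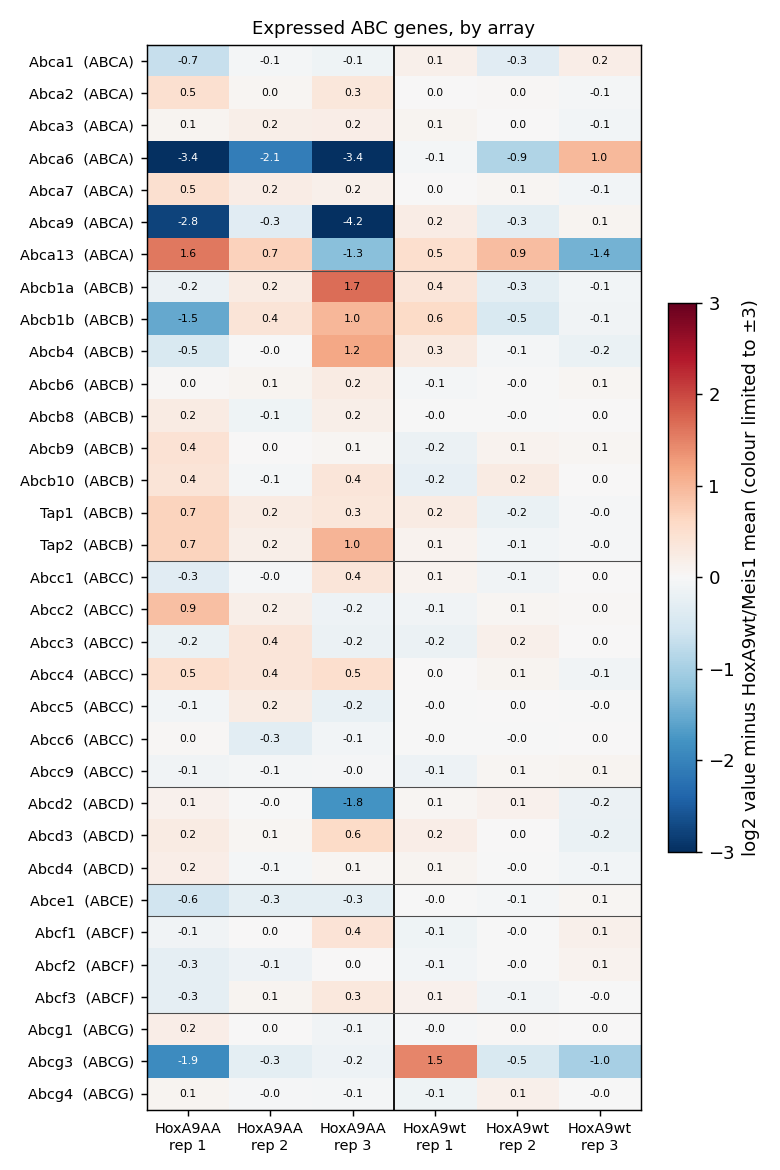
Values of the 33 expressed ABC genes (rows, grouped by subfamily) on the 6 arrays (columns), as the log2 value minus the HoxA9wt/Meis1 mean of the gene; colour stops at 3 in either direction. The columns of HoxA9AA replicates 1 and 3 hold most of the large departures, and replicate 2 departs by 1 or more in Abca6 alone.

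In the ABCA subfamily, which moves lipids, 7 of 12 members were expressed. Abca6 and Abca9 belong to a cluster of closely related genes whose human counterparts are known from macrophages as genes that respond to cholesterol. Abca6 measured 5.26, 6.62 and 5.28 in the HoxA9AA/Meis1 mice (replicates 1, 2 and 3), against 8.62, 7.79 and 9.65 in the HoxA9wt/Meis1 mice. All HoxA9AA/Meis1 mice lay below all HoxA9wt/Meis1 mice, with 1.17 between the nearest, and HoxA9AA replicates 1 and 3 lay below the expression limit. The group means were 5.72 ± 0.78 and 8.69 ± 0.93 (SD, n = 3 each), a difference of -2.97 ± 0.56 (SE; limma, adjusted p = 0.731). No fold is given, because the HoxA9AA/Meis1 mean lay under the expression limit. Leaving out 1 array at a time gave differences of -3.42 to -2.49 and adjusted p of 0.0807 to 0.998.

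Abca9 measured 7.01, 9.45 and 5.63 in the HoxA9AA/Meis1 mice, against 10.01, 9.49 and 9.86 in the HoxA9wt/Meis1 mice. HoxA9AA replicate 2 lay next to HoxA9wt replicate 2, and only HoxA9AA replicate 3 was below the expression limit. The means were 7.36 ± 1.93 and 9.79 ± 0.27, a difference of -2.42 ± 0.89 (limma, adjusted p = 0.731), which was -3.47 without HoxA9AA replicate 2 (adjusted p = 0.0572) and -1.56 without HoxA9AA replicate 3. In HoxA9AA replicate 2, therefore, Abca9 was 0.04 below the lowest HoxA9wt mouse and Abca6 1.17 below it.

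The gene order around this pair was taken from RefSeq (GRCm38.p6). On chromosome 11 the order is Abca8b, Abca8a, Abca9, Abca6, Abca5, with Map2k6 after Abca5. Abca8b lay under the expression limit on all arrays, at 5.04, 5.18 and 4.96 in HoxA9AA/Meis1 and 6.13, 5.04 and 5.84 in HoxA9wt/Meis1 marrow. HoxA9wt replicates 1 and 3 were above the other 4 mice in Abca8b. Abca8a and Abca5, on either side of the pair, lay under the limit too, with differences of -0.10 and -0.05. Map2k6, a kinase of the p38 pathway, was expressed and differed by -0.29 (unadjusted p = 0.231). Related genes of this cluster resemble each other in sequence, so signal of one gene picked up by the probes of another cannot be told apart here.

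Most markers of monocytes and macrophages also had lower means. Of 17 measured markers 15 had a lower mean in HoxA9AA/Meis1, as did 5173 of the 11860 expressed genes. In that direction an unadjusted p under 0.05 (limma) was found for 2.59% of all genes and for 405 of the 11860 expressed genes. Among the 17 markers, all expressed, it was found for 3, all lower. These were the receptor genes Mertk and Msr1, which both fell under the expression limit in single HoxA9AA/Meis1 mice, and the protease gene Ctss. Vcam1 and C1qc had a higher mean, and for Vcam1 all HoxA9AA/Meis1 mice lay above all HoxA9wt/Meis1 mice, with a difference of 1.28. None of the 17 passed the adjustment. The mean value over the 17 markers was 8.59, 9.62 and 8.90 in HoxA9AA replicates 1, 2 and 3, against 10.15, 9.35 and 9.74 in the HoxA9wt/Meis1 mice, so that the groups overlapped. The part of these cells in the values of Abca6 and Abca9 was not tested, and in whole marrow fewer cells of a type and less RNA per cell cannot be told apart.

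**Figure D3:**
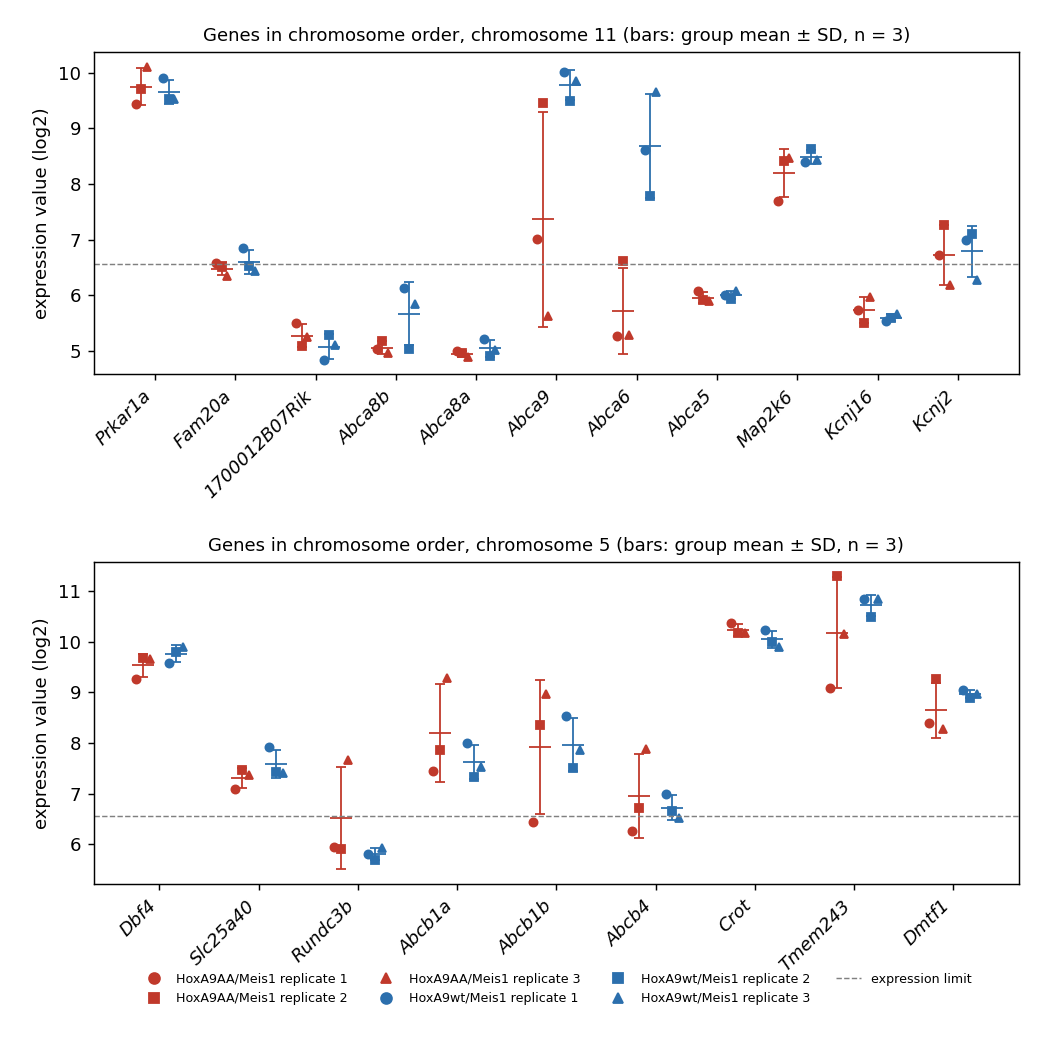
Expression values (vertical axis, log2) of the genes around Abca6 and Abca9 on chromosome 11 (top) and around Abcb1a, Abcb1b and Abcb4 on chromosome 5 (bottom), in chromosome order; symbols are single mice, bars the group mean ± SD (n = 3), and the dashed line the expression limit of 6.57. In the top panel Abca9 and Abca6 are the genes whose group means lie far apart, at 7.36 against 9.79 and 5.72 against 8.69, and in the bottom panel HoxA9AA replicate 3 is highest in Rundc3b and in all 3 ABC genes.

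Abca7, a lipid transporter linked to phagocytosis, measured 8.10, 7.85 and 7.77 in the HoxA9AA/Meis1 mice, against 7.64, 7.67 and 7.54 in the HoxA9wt/Meis1 mice. The groups did not overlap, and the difference was 0.29 ± 0.11 (limma, adjusted p = 0.731). Abca2, a transporter of endosomes and lysosomes, and Abca3, known for loading surfactant lipids into lamellar bodies in lung, also had all 3 HoxA9AA/Meis1 mice on top, with differences of 0.30 (95% interval -0.012 to 0.61) and 0.15 (-0.058 to 0.36). For Abca2 and Abca3 only 0.01 lay between the nearest mice of the groups. The differences of Abca7, Abca2 and Abca3 are small shifts of the opposite sign to those of Abca6 and Abca9.

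Abca1, which passes cholesterol and phospholipid to apolipoprotein A-I, measured 7.24, 7.87 and 7.79 in HoxA9AA/Meis1 marrow and 8.07, 7.59 and 8.12 in HoxA9wt/Meis1 marrow. The groups overlapped, and the 95% interval of the difference ran from -0.82 to 0.23. Abca13, one of the largest proteins of the family, measured 10.79, 9.88 and 7.94 in the HoxA9AA/Meis1 mice and 9.70, 10.12 and 7.77 in the HoxA9wt/Meis1 mice. Replicate 3 of each group stood well below the others. The same 2 mice had the lowest mean over the 10 late neutrophil markers, at 9.06 in HoxA9AA replicate 3 and 7.86 in HoxA9wt replicate 3, where the other HoxA9AA/Meis1 mice had 10.45 and 10.86 and the other HoxA9wt/Meis1 mice 10.16 and 10.78. Of these markers 8 had a higher mean in HoxA9AA/Meis1. Their part in the level of Abca13 was not tested.

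The ABCG subfamily includes transporters of sterols and drugs, and 3 of its 6 members were expressed. Abcg1, which exports cholesterol to high-density lipoprotein, was steady across mice, at 8.81, 8.63 and 8.52 in HoxA9AA/Meis1 and 8.57, 8.66 and 8.62 in HoxA9wt/Meis1 marrow. Its difference was 0.037 with a 95% interval of -0.21 to 0.28. Abcg4, a close relative of Abcg1, differed by -0.003 (-0.25 to 0.25).

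Abcg3 measured 5.95, 7.54 and 7.67 in the HoxA9AA/Meis1 mice and 9.30, 7.37 and 6.83 in the HoxA9wt/Meis1 mice. Its extremes were HoxA9wt replicate 1 at the top and HoxA9AA replicate 1 at the bottom, below the expression limit, and among the other 4 mice both HoxA9AA/Meis1 mice lay above both HoxA9wt/Meis1 mice, opposite in sign to the group difference of -0.78 (95% interval -2.55 to 0.99). The mean of the monocyte and macrophage markers was also lowest in HoxA9AA replicate 1, at 8.59, and highest in HoxA9wt replicate 1, at 10.15. It was 9.62 and 8.90 in HoxA9AA replicates 2 and 3 and 9.35 and 9.74 in HoxA9wt replicates 2 and 3. Among these 4 mice its order differed from that of Abcg3. The part of these cells in the level of Abcg3 was not tested.

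Abcg2, a drug efflux pump by which stem cells are recognised in dye exclusion assays, stayed under the expression limit on every array. It read 5.85, 5.90 and 5.60 in HoxA9AA/Meis1 and 6.04, 6.39 and 6.10 in HoxA9wt/Meis1 marrow, a difference of -0.39 ± 0.13 (limma, adjusted p = 0.731) that is not given as a fold because both groups lay at background. Abcg5 and Abcg8, which form the sterol exporter of liver and intestine, were under the limit as well.

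Of the genes that work with these exporters, 21 of 25 named partners in cholesterol transport and LXR control were measured, 13 with a higher and 8 with a lower mean, and none passed. The median difference was 0.070. Those with the smallest p were the oxysterol-binding protein gene Osbpl5 (7.35, 6.96 and 7.24 in HoxA9AA/Meis1 against 6.78, 6.84 and 6.68 in HoxA9wt/Meis1), the nuclear receptor gene Rxrb (difference 0.25) and the phospholipid transfer protein gene Pltp (-0.56). For Pltp the size of the difference came from HoxA9wt replicate 1, at 9.0, where the other 5 mice measured 7.61 to 7.94.

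**Figure D4:**
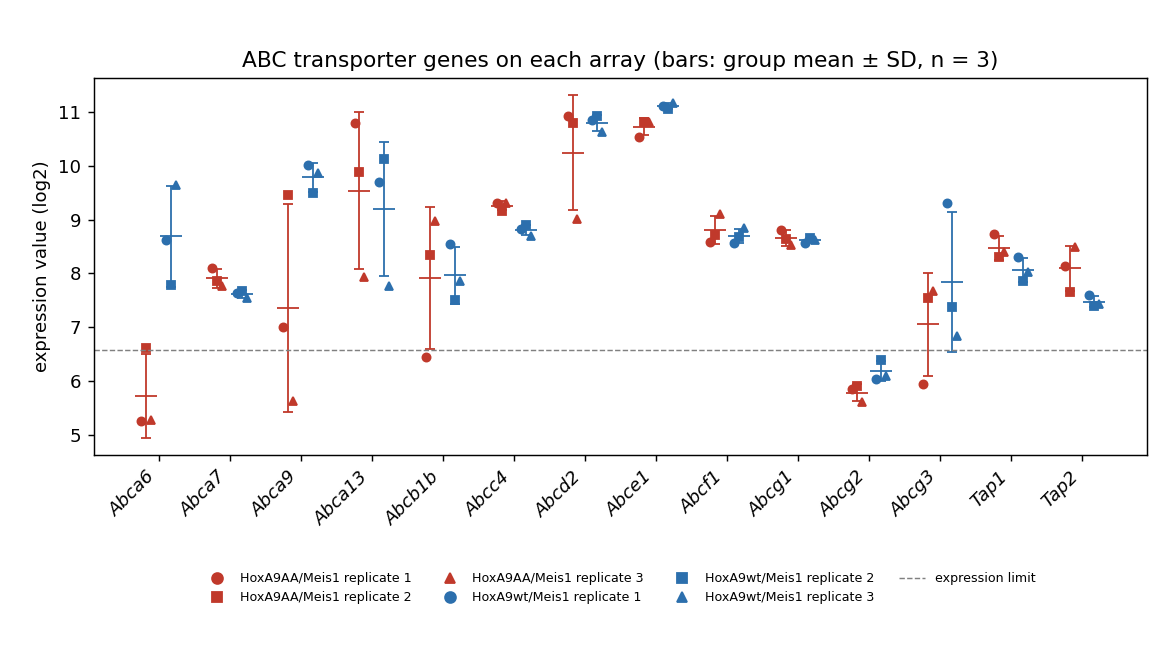
Expression values (vertical axis, log2) on each of the 6 arrays of the 14 ABC genes with an unadjusted p under 0.05, with a range of 2 or more over the mice, or with the brightest probe set of their subfamily; symbols are single mice, bars the group mean ± SD (n = 3), and the dashed line the expression limit of 6.57. HoxA9AA replicate 2 lies with the HoxA9wt/Meis1 mice in Abca9, at 9.45, but not in Abca6, at 6.62.

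In the ABCB subfamily, 9 of 10 members were expressed and 8 of the 9 had a higher mean in HoxA9AA/Meis1 marrow, with a median difference of 0.23 beside 0.030 over all expressed genes. Of all 11860 expressed genes 6687 had a higher mean. None of the ABCB members passed the test. Tap2, part of the peptide pump for MHC class I, measured 8.14, 7.65 and 8.49 in the HoxA9AA/Meis1 mice, against 7.59, 7.40 and 7.43 in the HoxA9wt/Meis1 mice. All HoxA9AA/Meis1 mice lay above all HoxA9wt/Meis1 mice, replicate 2 by the least. The difference was 0.62 ± 0.21 (limma, adjusted p = 0.731), or 1.54-fold higher, and it was 0.84 without HoxA9AA replicate 2 (adjusted p = 0.0912).

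Tap1, the other part of the pump, measured 8.73, 8.30 and 8.40 in HoxA9AA/Meis1 and 8.31, 7.86 and 8.02 in HoxA9wt/Meis1 marrow. HoxA9AA replicate 2 and HoxA9wt replicate 1 were nearly level, so that the groups overlapped. The difference was 0.41 ± 0.16 (limma, adjusted p = 0.731), or 1.33-fold, and it was 0.50 without HoxA9AA replicate 2 (adjusted p = 0.298). Between Tap1 and Tap2 on chromosome 17 lies Psmb8, a subunit of the immunoproteasome that makes the peptides, and Psmb9, another subunit, lies on the other side of Tap1. Psmb8 measured 10.05, 10.15 and 10.76 in HoxA9AA/Meis1, against 9.98, 9.73 and 9.70 in HoxA9wt/Meis1 marrow, and its groups did not overlap. Psmb9 measured 9.86, 9.73 and 10.41, against 10.07, 9.69 and 9.50, with overlap.

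Of 19 named partners of TAP in antigen processing 17 were measured, 11 with a higher and 6 with a lower mean and a median difference of 0.14. An unadjusted p under 0.05 (limma) was found for 4, all higher, and none passed the adjustment. In that direction it was found for 4.15% of all genes and for 767 of the 11860 expressed genes. All 17 partners were expressed. These were Tapbpl and Tapbp, which edit and hold the peptide load of MHC class I, Psmb8, and the proteasome activator gene Psme1. Tapbpl measured 8.15, 8.20 and 8.76 in HoxA9AA/Meis1, against 7.91, 7.85 and 7.76 in HoxA9wt/Meis1 marrow. Tapbp measured 8.63, 8.32 and 9.01, against 8.31, 8.08 and 8.0. In both genes the HoxA9AA/Meis1 mice were all higher, for Tapbp by only 0.01 between the nearest mice, and HoxA9AA replicate 3 was the highest of all.

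**Figure D5:**
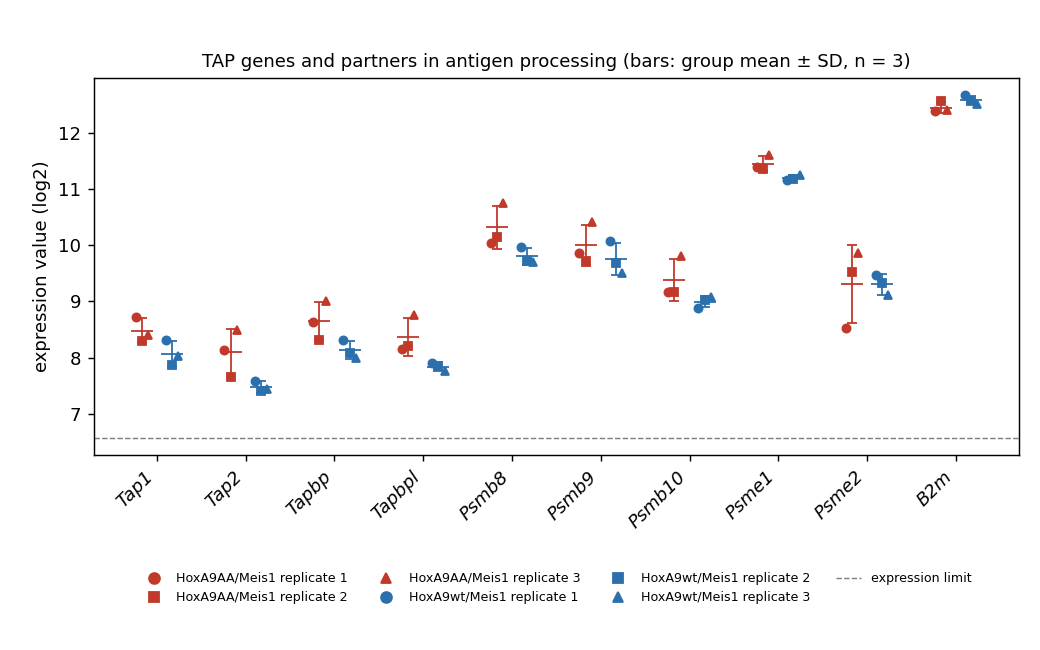
Expression values (vertical axis, log2) of Tap1, Tap2 and 8 genes that work with them in antigen processing; symbols are single mice, bars the group mean ± SD (n = 3), and the dashed line the expression limit of 6.57. Tap2, Tapbp, Tapbpl, Psmb8, Psmb10 and Psme1 have all HoxA9AA/Meis1 mice above all HoxA9wt/Meis1 mice, while Tap1, Psmb9, B2m and Psme2 do not. The 8 partners are a selection of the 17 measured. Of the 17, 5 had groups that did not overlap, against 13.9% of all expressed genes, and all 5 are drawn. Of the 6 with a lower mean, B2m alone is drawn.

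The 3 drug and phospholipid transporter genes Abcb1a, Abcb1b and Abcb4 are neighbours on chromosome 5. Abcb1a, 1 of the 2 mouse P-glycoprotein genes, measured 7.44, 7.86 and 9.29 in the HoxA9AA/Meis1 mice and 7.99, 7.33 and 7.53 in the HoxA9wt/Meis1 mice. Abcb1b, the other, measured 6.44, 8.35 and 8.97 and in the HoxA9wt/Meis1 mice 8.54, 7.50 and 7.86. Abcb4, a phosphatidylcholine transporter best known from bile, measured 6.27, 6.71 and 7.88 and in the HoxA9wt/Meis1 mice 6.99, 6.66 and 6.52.

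In all 3 genes HoxA9AA replicate 3 was the highest of the 6 mice, HoxA9AA replicate 1 was the lowest for Abcb1b and Abcb4, and the groups overlapped. The 95% intervals of the differences were -0.55 to 1.71 for Abcb1a, -1.60 to 1.51 for Abcb1b and -0.73 to 1.19 for Abcb4, so that neither direction can be given. The sign of the Abcb1b difference (-0.047) turned to 0.69 without HoxA9AA replicate 1 and to 0.24 without HoxA9wt replicate 1. Rundc3b, next to Abcb1a, was also high in HoxA9AA replicate 3, at 7.67, against 5.68 to 5.95 in the other 5 mice. Crot, next to Abcb4, was not, at 10.16 against 9.90 to 10.36. The 2 P-glycoprotein genes are close copies, and probes that read both cannot be told apart here.

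The proteins of the remaining expressed ABCB genes sit in organelles. Abcb6, Abcb8 and Abcb10 are known from mitochondria and haem or iron handling, and Abcb9 carries peptides into lysosomes. Their differences lay between 0.097 and 0.23, and all 4 overlapped between groups. Abcb10 measured 7.44, 6.99 and 7.42 in HoxA9AA/Meis1 and 6.81, 7.29 and 7.06 in HoxA9wt/Meis1 marrow. Of 21 named genes of haem synthesis and mitochondrial iron 19 were measured, 10 higher and 9 lower, with a median of 0.037. The haem exporter gene Flvcr1 had the smallest p, at 7.60, 8.18 and 7.66 in HoxA9AA/Meis1 against 8.27, 8.36 and 8.76 in HoxA9wt/Meis1 marrow, followed by Hmox1 (-0.67) and Flvcr2 (0.20, below the expression limit). None passed. Erythroid markers stood highest in HoxA9wt replicate 2, with a mean over 9 genes of 7.49 there, against 6.07 to 6.24 in the HoxA9AA/Meis1 mice and 6.20 and 6.51 in the other HoxA9wt/Meis1 mice. Abcb10 was also highest among the HoxA9wt/Meis1 mice in that mouse, at 7.29. It was higher still in HoxA9AA replicates 1 and 3, at 7.44 and 7.42, where the erythroid means were 6.24 and 6.07. Only 3 of the 9 erythroid genes were expressed, and the part of erythroid cells was not tested.

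In the ABCC subfamily, the multidrug resistance-associated proteins and their relatives, 7 of 10 members were expressed, 3 with a higher and 4 with a lower mean, and the median difference was -0.013. Abcc4, which exports cyclic nucleotides, nucleotide analogues and prostaglandins, measured 9.30, 9.16 and 9.31 in the HoxA9AA/Meis1 mice, against 8.82, 8.89 and 8.70 in the HoxA9wt/Meis1 mice. The groups did not overlap, and the mice of each group lay close together, HoxA9AA replicate 2 included. The means were 9.26 ± 0.08 and 8.80 ± 0.10, a difference of 0.45 ± 0.09 (limma, adjusted p = 0.731), or 1.37-fold higher. Leaving out single arrays gave 0.40 to 0.50.

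Abcc1, the exporter of leukotriene C4 and glutathione conjugates, measured 7.38, 7.68 and 8.08 in HoxA9AA/Meis1 and 7.83, 7.62 and 7.73 in HoxA9wt/Meis1 marrow, and its 95% interval ran from -0.45 to 0.42. Abcc2, an organic anion exporter best known from liver, read 7.98 in HoxA9AA replicate 1 and 6.92 to 7.26 in the other 5 mice. Abcc3, Abcc5, Abcc6 and Abcc9 differed by 0.003, -0.027, -0.12 and -0.070, and their groups overlapped. Abcc9 and the unexpressed Abcc8 encode the sulphonylurea receptors, which regulate potassium channels and are not pumps.

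All 12 named genes of leukotriene synthesis and reception were measured, 6 higher and 6 lower. The leukotriene receptor gene Cysltr1 had the smallest p, with 7.07, 9.86 and 9.08 in HoxA9AA/Meis1 against 10.47, 9.95 and 9.91 in HoxA9wt/Meis1 marrow. Cysltr2, below the expression limit, and Alox5 followed, with differences of 0.26 and 0.65. Of 23 named genes of glutathione and drug metabolism 22 were measured, 14 higher and 8 lower, with a median of 0.11. The transferase gene Gstp1 measured 10.91, 10.23 and 10.75 in HoxA9AA/Meis1 and 10.41, 9.85 and 9.97 in HoxA9wt/Meis1 marrow. Nqo1, a quinone reductase below the expression limit, and the transferase gene Gsta4 differed by 0.28 and 0.44. No gene of either list passed.

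All 3 ABCD members were expressed. Abcd2, a peroxisomal transporter of very long-chain fatty acids, measured 10.93, 10.79 and 9.01 in HoxA9AA/Meis1 and 10.85, 10.92 and 10.62 in HoxA9wt/Meis1 marrow. HoxA9AA replicate 3 alone stood low, and without it the difference of -0.55 turned to 0.063. Abcd3, which brings branched-chain acids and bile acid precursors into peroxisomes, measured 8.67, 8.48 and 9.01 in HoxA9AA/Meis1 and 8.62, 8.43 and 8.23 in HoxA9wt/Meis1 marrow. HoxA9AA replicate 3, lowest in Abcd2, was highest in Abcd3. Abcd4, which serves the export of vitamin B12 from lysosomes, differed by 0.063. Of 26 named peroxisomal partners 21 were measured, 14 higher and 7 lower, with a median of 0.063. Acsl4, Pex10 (below the expression limit) and Pex6 had the smallest p, with differences of -0.57, 0.22 and 0.24, and none passed.

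Abce1, the only member of its subfamily, splits ribosomes after translation ends. It measured 10.54, 10.82 and 10.81 in the HoxA9AA/Meis1 mice, against 11.11, 11.06 and 11.17 in the HoxA9wt/Meis1 mice. All 3 HoxA9AA/Meis1 mice lay below the HoxA9wt/Meis1 mice. The means were 10.72 ± 0.16 and 11.11 ± 0.06, a difference of -0.39 ± 0.11 (limma, adjusted p = 0.731), or 1.31-fold lower, and single arrays left out gave -0.44 to -0.30.

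The 3 ABCF genes, which act on ribosomes and on translation control, were expressed and overlapped between groups. Abcf1 measured 8.59, 8.72 and 9.10 in HoxA9AA/Meis1 and 8.57, 8.68 and 8.84 in HoxA9wt/Meis1 marrow, and Abcf2 and Abcf3 differed by -0.14 and 0.043. Of 16 named genes of ribosome recycling and translation control 14 were measured, 2 with a higher and 12 with a lower mean in HoxA9AA/Meis1, with a median of -0.19 beside 0.030 over all expressed genes. Of all 11860 expressed genes 5173 had a lower mean. None of the 14 had an unadjusted p under 0.05. Hbs1l, which with Pelota frees stalled ribosomes for Abce1, measured 8.70, 9.61 and 9.56 in HoxA9AA/Meis1 against 9.83, 9.87 and 9.75 in HoxA9wt/Meis1 marrow. Impact, a regulator of the kinase Gcn2, had the smallest p of the list (unadjusted p = 0.07) with a difference of -0.38, and Eif5b differed by -0.22. The mean over the 14 genes was 9.11, 9.48 and 9.46 in HoxA9AA/Meis1, against 9.56, 9.57 and 9.61 in HoxA9wt/Meis1 marrow, so HoxA9AA replicate 1 was the lowest.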

How the data were processed

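RNA of 6 mice was read on 6 Affymetrix mouse whole-transcript arrays, 1 a mouse, and the labels call the mice biological replicates. Per the submitters' processing notes, the authors made the deposited log2 values by RMA with oligo; RMA subtracts background, brings arrays to common quantiles and summarises probe sets. The sources used here give no versions, and the log2 scale was taken from the range of the values. Probe sets were named through the platform annotation, which gives 1 symbol for 21789 of 35556; the 1621 with several symbols and the 12146 it does not list were not used. The brightest probe set by mean over the 6 arrays was used for each of 19938 genes, and every ABC gene had 1.

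The test was limma's (version 3.58.1, R 4.3.3; lmFit, then eBayes, two-sided, without a block), adjusted by Benjamini-Hochberg over all genes with a threshold of 0.05, and the fit was tested on simulated data. The members, partner lists and marker lists were chosen with earlier results of these data known, and the motifs and the genes whose promoters are shown were chosen after values were seen. Values on every array were given for members with an unadjusted p under 0.05, with non-overlapping groups and a difference of 0.5 or more, with a range of 2 or more, or with the brightest probe set of their subfamily, and for further members described in the text after their values were seen. Up to 3 partners per list, those with the smallest p, were named, with further genes chosen by position or after their values were seen. Promoter sequences are RefSeq's (GRCm38.p6) for 34 members; 11 had no entry. Alternatives were a block for the replicate number, each array left out in turn, expressed genes only, averaged probe sets, median centring, quantile normalization, trend and robust moderation, and array weights. Figures were drawn with matplotlib 3.10.9.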

Additional observations from a re-analysis of the deposited data

How the results depend on the processing

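Of the 181 recomputed differences of the 14 members shown in the plot of values by array, 173 kept their direction and stayed short of the threshold under the 13 alternatives, and 0 passed it. The sign turned for 8, all from differences with wide intervals or near 0: Abca13 to -0.29 without HoxA9AA replicate 1 and to -0.37 without HoxA9wt replicate 3 (-0.37 to 1.14 over the 6 arrays left out in turn), Abcb1b to 0.69 without HoxA9AA replicate 1, to 0.24 without HoxA9wt replicate 1 (-0.57 to 0.69) and to 0.35 with array weights, Abcd2 to 0.063 (-0.90 to 0.063) and Abcf1 to -0.042 (-0.042 to 0.21) without HoxA9AA replicate 3, and Abcg1 to -0.042 (-0.042 to 0.10) without HoxA9AA replicate 1. The cause was not tested. The number of members with an adjusted p under 0.05 (limma) was 0 in every alternative, while 48 of all genes passed without HoxA9AA replicate 2 and 1 without HoxA9wt replicate 3. HoxA9AA replicate 2 was the array of its group nearest to the HoxA9wt arrays, so its removal tends to widen differences. The number with an unadjusted p under 0.05, 8 with all arrays, was 4 to 8 with 1 array left out and 5 with trend and robust moderation. The number whose groups do not overlap was 11 to 15 with 1 array left out, where fewer mice make overlap less likely. The median difference of the expressed members was 0.038 to 0.13 with 1 array left out, the highest without HoxA9AA replicate 2. Of the 45 members, 31 were expressed with the median of all probe sets (6.82) as the limit and 22 with the 99th percentile of the olfactory receptor genes (7.23).

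No sign of pairing by replicate number was seen. The deviations of same-numbered mice from their group means correlated at -0.21, -0.10 and -0.013, and those of mice with unlike numbers at -0.16 to 0.24. Deviations from a mean of 3 mice are tied to each other, so these values cannot decide whether the mice were paired. With the replicate block 7 members had an unadjusted p under 0.05, and the smallest adjusted p of the members (limma) was 0.891, with no member called.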

Other observations

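The array also names ABC genes outside the described list. Abca14, Abca15, Abca16, Abca17, Abcb5 and Cftr lay under the expression limit, with a mean over the 6 genes of 5.06 to 5.14 in the HoxA9AA/Meis1 mice and 4.98 to 5.20 in the HoxA9wt/Meis1 mice.

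Markers of mast cells and basophils varied between the mice of both groups, with a mean over 7 genes of 6.74, 6.24 and 7.50 in the HoxA9AA/Meis1 mice and 7.43, 6.33 and 6.43 in the HoxA9wt/Meis1 mice. Of the 7, Cpa3, Mcpt8 and Gata2 were expressed. The carboxypeptidase gene Cpa3 measured 7.83, 6.45 and 11.08 in the HoxA9AA/Meis1 mice and 10.47, 5.69 and 7.35 in the HoxA9wt/Meis1 mice, and the Fc receptor chain gene Ms4a2, whose mean lay below the expression limit, measured 6.17, 5.65 and 7.10 and in the HoxA9wt/Meis1 mice 7.28, 6.04 and 5.33. HoxA9AA replicate 3 and HoxA9wt replicate 1 were the highest of their groups in Cpa3, Ms4a2, Mcpt8 and Prss34, but not both in Gata2, Fcer1a or Cma1. The same 2 mice were the highest of their groups in Abcb1a, Abcb1b and Abcb4. Stem and progenitor markers had a mean over 8 genes of 8.18, 7.51 and 8.42 in the HoxA9AA/Meis1 mice and 7.65, 7.16 and 7.60 in the HoxA9wt/Meis1 mice. The 8 include Meis1, which was introduced in both groups, and Mecom, Procr and Sox4, whose means lay below the expression limit. The part of either cell type in the values of those ABC genes was not tested.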
